A study of Mus musculus with 12 samples.

Results

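The machinery that carries a signal from the T cell receptor to the cell was followed here in regulatory T cells (Treg) with and without an intact Foxp3 gene, in spleen and lung. The set holds 38 genes, chosen by symbol from a list of surface receptors, kinases, adaptors, relay enzymes and brakes of receptor signalling, out of 55011 genes counted. The rule that names them uses no measured value, although the list was chosen with earlier results of these data known. All 38 passed the filter on low counts that left 13295 genes for testing. RNA was counted in 12 libraries, 3 for each of 4 groups, with 3958892 to 9025150 counts per library. Every group came from 21-day-old male C57BL/6 mice, and each library from 1000 cells sorted as DAPI-, TCRβ+, CD4+, GFP+ and CD25+. WT cells of both tissues carried Foxp3.ires.GFP, an intact gene linked to a green fluorescent reporter. For the ∆Foxp3 cells the sample labels name ∆Foxp3.EGFP.iCre with an R26.YFP reporter in spleen and ∆Foxp3.ires.GFP in lung, whereas the extraction protocol names only ∆Foxp3.ires.GFP. Allele and tissue therefore cannot be told apart among the ∆Foxp3 libraries. The genotype is that of the mouse, so changes that arise in the cell and changes that come from its surroundings cannot be told apart either. Lungs were perfused, digested with enzymes and enriched for CD4 T cells, while spleens were dissociated mechanically. Whether a group's 3 libraries were drawn from different mice is not stated, so the p-values refer to the spread among the libraries at hand, part of which may be technical.

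When the receptor meets its antigen, the kinase Lck phosphorylates the receptor's CD3 and zeta chains, which recruit the kinase Zap70. Zap70 then phosphorylates a scaffold built from the adaptors Lat, Lcp2 and Grap2, on which phospholipase C gamma, Tec family kinases and guanine nucleotide exchange factors assemble. Calcium, diacylglycerol, Ras and NF-kappa-B signals follow, and phosphatases, ubiquitin ligases, diacylglycerol kinases and inhibitory adaptors restrain each step. Treg need receptor signals to develop and to suppress other T cells, and Foxp3 is the transcription factor that defines them.

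Foxp3 counts checked the labels, given here as CPM, counts normalised to the TMM-scaled depth of each library. The Foxp3 levels of spleen were 1026, 991 and 1096 CPM in WT and 159, 114 and 227 CPM in ∆Foxp3, and those of lung 1418, 1361 and 1328 CPM in WT and 469, 385 and 189 CPM in ∆Foxp3. All 6 ∆Foxp3 libraries lay below all 6 WT libraries, although none was at 0. The labels do not name the deleted exons, and 31.5% of its exon bases overlap other annotated genes. The 8 T cell markers (Cd3d, Cd3e, Cd3g, Cd247, Cd4, Trbc1, Trbc2 and Trac) were present in every library, at a summed 5602 to 6997 CPM in spleen WT, 4632 to 5140 in spleen ∆Foxp3, 5440 to 5701 in lung WT and 4399 to 5060 in lung ∆Foxp3, so this sum too was lower in the ∆Foxp3 libraries of both tissues. The markers did not all move this way. From WT to ∆Foxp3, mean Cd4 rose from 649 to 844 CPM in spleen and from 705 to 913 CPM in lung. Mean Cd3g in lung went from 658 to 730 CPM. Of the B and plasma cell markers, Ms4a1 and Blnk were at 0 in spleen WT, and the 8 markers summed to between 26.0 and 43.8 CPM in every library. Ncr1 was at 0 in all groups, and the 6 CD8 T and NK cell markers summed to 31.2 to 36.5 CPM in spleen WT, 15.4 to 41.3 in spleen ∆Foxp3, 21.6 to 22.03 in lung WT and 21.0 to 72.4 in lung ∆Foxp3. Of these, Klrk1, a receptor of NK cells and CD8 T cells, was at 0, 1.04 and 0 CPM in lung WT and 5.08, 22.8 and 15.4 CPM in lung ∆Foxp3 (adjusted p = 0.00272), the only one of the 4 tested that was called in lung. The 8 myeloid markers summed to 28.2 to 135 CPM in spleen WT, 38.1 to 251 in spleen ∆Foxp3, 10.7 to 155 in lung WT and 3.92 to 10.7 in lung ∆Foxp3. The 8 erythroid and platelet markers stood out in lung WT, at 1975 to 4902 CPM, against 1.19 to 408 CPM in lung ∆Foxp3 and 9.10 to 397 CPM in the spleen groups. The 5 endothelial markers summed to 270 to 329 CPM in the WT libraries and 89.4 to 144 CPM in the ∆Foxp3 libraries, nearly all of it Pecam1, which T cells also express. The 5 lung epithelial markers summed to 21.3 to 38.1 CPM in spleen WT, 6.56 to 9.76 in spleen ∆Foxp3, 36.5 to 206 in lung WT and 11.7 to 21.7 in lung ∆Foxp3. The part of these other cells in the differences below was not tested. The 5 Treg markers (Foxp3, Il2ra, Ikzf2, Ctla4 and Tnfrsf18) summed to 3519 to 4229.8 CPM in the WT libraries, and to 1574 to 2717 CPM in the ∆Foxp3 libraries. Il2ra, which encodes the CD25 of the gate, was at 719, 897 and 766 CPM in WT and 237, 504 and 435 CPM in ∆Foxp3 for spleen, and at 711, 599 and 607 CPM in WT and 575, 433 and 360.1 CPM in ∆Foxp3 for lung. In all, 3 libraries stood apart, picked after the data had been seen. Spleen WT 1 held 0.112% of its counts in the repeat-rich predicted genes Gm10800 and Gm10801 together, against 0.743% to 2.94% in the others. More genes were detected in lung WT 1 (22981) and lung ∆Foxp3 3 (23649) than in any other library, and mitochondrial counts made up 2.44% of the latter.

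Together the 38 genes took 1.40%, 1.50% and 1.53% of all counts in spleen WT and 1.22%, 1.14% and 1.17% in spleen ∆Foxp3. In lung they took 1.55%, 1.53% and 1.49% in WT and 1.31%, 1.25% and 1.15% in ∆Foxp3. The share was thus lower in every ∆Foxp3 library than in every WT library, by a mean of 1.48% against 1.18% in spleen and 1.52% against 1.23% in lung. This sum weighs abundant genes most, and no such share was computed for other sets of genes. Genes moved both ways within it. From WT to ∆Foxp3, mean Dgka went from 1490 to 716 CPM in spleen and from 1784 to 770 CPM in lung. Mean Zap70 went from 321 to 632 CPM and from 239 to 544 CPM. In bulk RNA of this kind, fewer cells that express a gene and less RNA per cell cannot be told apart. A principal component analysis of the 38 genes put 74.2% of their variance on a first axis, on which the WT libraries lay between −3.03 and −1.65 and the ∆Foxp3 libraries between 1.11 and 3.30. The second axis held 9.27%. The genotypes were also parted on the first axis over all genes tested, which held 40.1% of the variance. There the WT libraries lay between −96.3 and −46.3 and the ∆Foxp3 libraries between 55.1 and 80.9, so this split is not particular to the 38 genes.

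**Figure D1:**
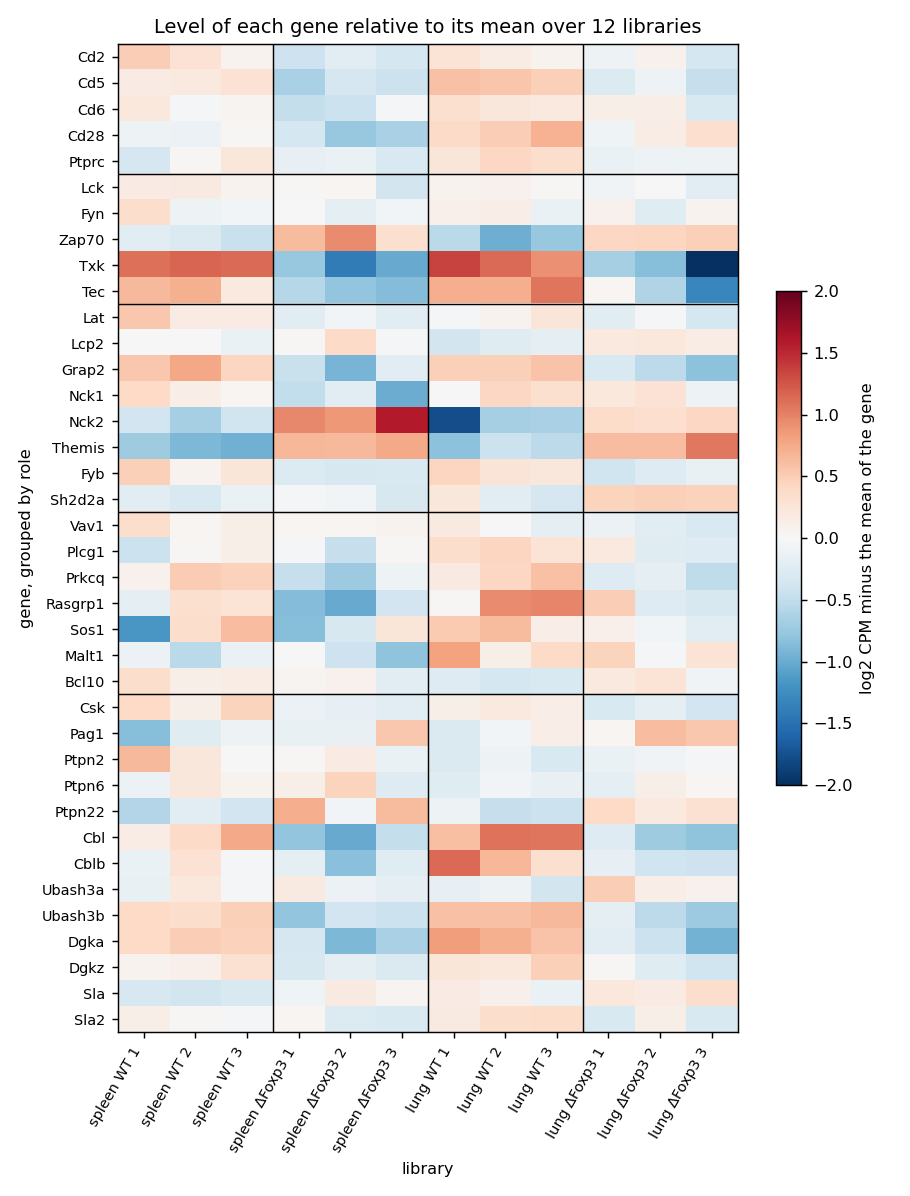
Each row is a gene, ordered by role, and each column a library. Colour gives log2 CPM minus the gene's mean over the 12 libraries, clipped at 2 in either direction. Txk, Cbl, Dgka and Ubash3b are blue and Themis, Zap70 and Nck2 are red in all 6 ∆Foxp3 libraries.

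In spleen, 5 of the 38 genes rose and 15 fell in ∆Foxp3 against WT (edgeR quasi-likelihood test, Benjamini-Hochberg adjusted over all 13295 genes, threshold 0.05). Of all genes tested, 14.1% rose and 12.5% fell, so the share of members that fell was above the background and the share that rose was not. In lung, 7 rose and 13 fell, against 9.74% and 10.5% of all genes tested. The median log2 fold change of the members was −0.32 in spleen and −0.29 in lung, and that of all genes tested −0.02 and −0.01. Members are well expressed, and among the 8927 genes with a mean of at least 10 CPM the background was 17.2% higher and 14.7% lower in spleen and 12.5% higher and 12.6% lower in lung. No count of this kind has a test of its own. Zap70, Nck2, Themis and Ptpn22 rose in both tissues. Cd5, Txk, Tec, Grap2, Fyb, Prkcq, Csk, Cbl, Ubash3b and Dgka fell in both. No gene rose in one tissue and fell in the other, and 12 of the 38 passed in neither. The joint shares over all genes tested were not computed, so these joint counts have no background beside them. For every call, the 3 libraries of one genotype lay wholly above or below the 3 of the other. The groups were separate in this way for 5 higher and 19 lower members in spleen (18.6% and 19.5% of all genes) and for 8 higher and 19 lower in lung (23.2% and 22.2%). Without the 3 libraries that stood apart, 5 rose and 12 fell in spleen, and 3 rose and 10 fell in lung. Leaving out 1 lung library lowered the lung count of risen genes to 4 (WT 1, WT 3, ∆Foxp3 2 or ∆Foxp3 3) or 3 (WT 2).

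**Figure D2:**
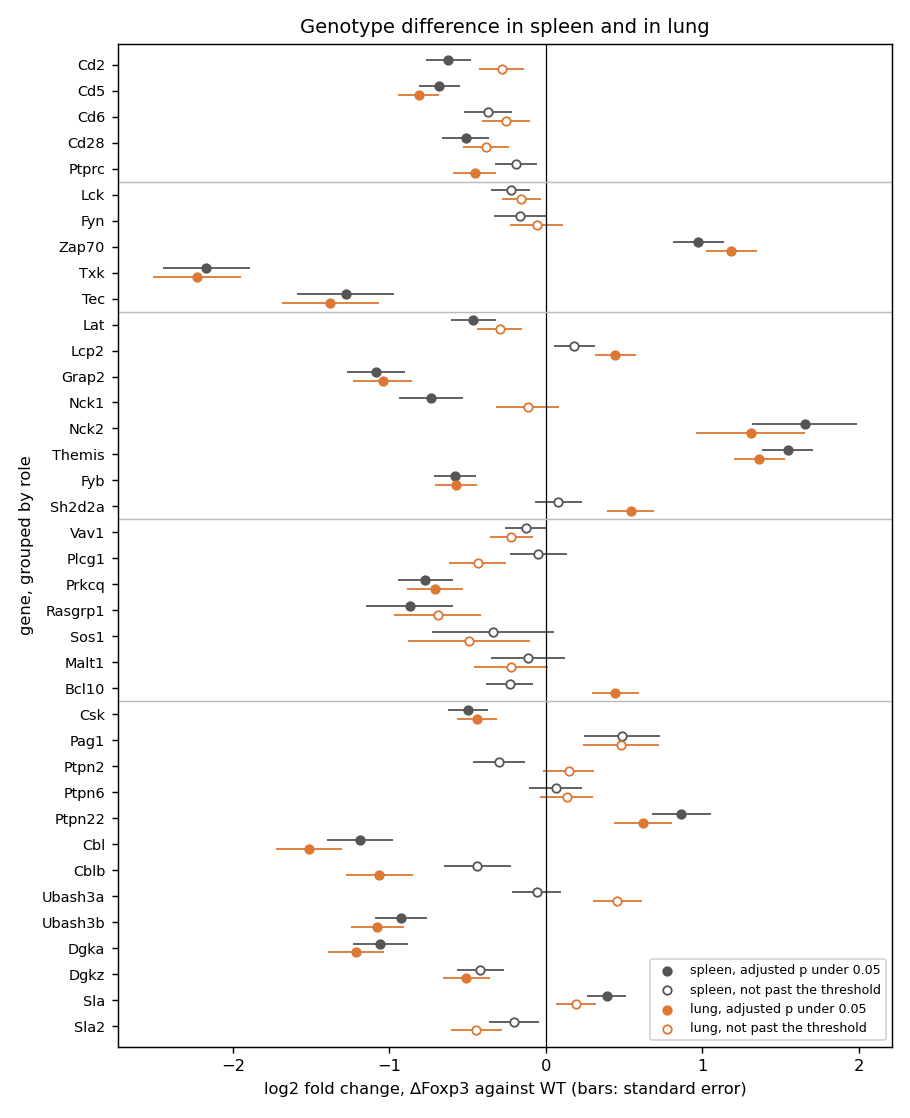
Log2 fold change of ∆Foxp3 against WT with its standard error for each gene, grouped by role, in spleen (grey) and lung (orange). Filled points passed the threshold. Txk lies farthest to the left in both tissues, at −2.17 and −2.23, and Nck2 and Themis farthest to the right.

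The promoter windows of 4 genes are shown because these had the largest fall (Txk), the largest fall among the brakes (Cbl) and the largest rises (Nck2 and Themis). RefSeq windows (GRCm38.p6) matched 30 of the 38 genes, and each sequence below is the 250 bases before the annotated start, read 5′ to 3′ on the gene's strand, with capitals marking a forkhead core. The windows are chr5:72752778-72753027 (minus strand) for Txk, chr9:44234047-44234296 (minus) for Cbl, chr1:43445501-43445750 (plus) for Nck2 and chr10:28668110-28668359 (plus) for Themis. These starts are those of RefSeq, while the gene coordinates given below come from GENCODE. There Nck2 begins at 43444579, so its window lies inside the gene, and the Cbl window reaches into the Cbl gene, which ends at 44234049.
Txk: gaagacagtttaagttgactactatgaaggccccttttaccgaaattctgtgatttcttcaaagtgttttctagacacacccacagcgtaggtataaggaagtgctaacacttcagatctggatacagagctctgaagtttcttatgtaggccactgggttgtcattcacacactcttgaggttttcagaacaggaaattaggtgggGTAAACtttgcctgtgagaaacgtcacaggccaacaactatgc
Cbl: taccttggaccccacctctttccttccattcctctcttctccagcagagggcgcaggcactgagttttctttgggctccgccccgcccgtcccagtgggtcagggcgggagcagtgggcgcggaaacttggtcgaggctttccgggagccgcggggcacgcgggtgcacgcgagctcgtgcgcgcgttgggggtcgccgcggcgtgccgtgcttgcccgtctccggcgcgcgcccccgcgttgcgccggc
Nck2: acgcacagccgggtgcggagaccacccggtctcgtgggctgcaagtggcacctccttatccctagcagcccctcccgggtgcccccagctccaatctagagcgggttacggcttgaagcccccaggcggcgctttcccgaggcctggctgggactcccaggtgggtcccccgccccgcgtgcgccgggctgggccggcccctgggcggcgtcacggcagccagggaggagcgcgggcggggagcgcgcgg
Themis: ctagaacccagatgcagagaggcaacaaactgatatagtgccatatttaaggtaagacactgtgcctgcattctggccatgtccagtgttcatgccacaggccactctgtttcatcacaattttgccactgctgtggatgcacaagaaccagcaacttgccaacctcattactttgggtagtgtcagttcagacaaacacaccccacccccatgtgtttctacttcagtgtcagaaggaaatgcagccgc
The Txk window was 42.8% G and C with 3 CpG dinucleotides, and the Themis window 48.0% with 1. The Cbl and Nck2 windows held 71.6% and 75.2% G and C, with 33 and 26 CpG. The motif cores searched, on both strands, were GTAAAC for forkhead factors (the family of Foxp3), CGGAAG for ETS factors and TGTGGT for Runx factors. None overlaps another in these 4 windows, of which only that of Txk held a match, a GTAAAC from 43 to 38 bases before the start. Among the 30 members, 2 held the forkhead core (Txk and Grap2), 3 the ETS core (Bcl10, Tec and Ptpn6) and 3 the Runx core (Sla2, Lck and Sos1). Over all 27025 windows of that length, 6.91% held the forkhead core, 13.8% the ETS core and 14.2% the Runx core. A match is a run of letters and not a bound site.

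Among the surface receptors, 3 of 5 fell in spleen and 2 of 5 in lung, and none rose. Each count by role stands against the same shares of all genes, 14.1% higher and 12.5% lower in spleen and 9.74% and 10.5% in lung. Cd5 (chromosome 19, 10717116 to 10739002, build mm10 here and below), an inhibitory receptor that dampens signalling at the synapse, fell in both tissues. In spleen, Cd5 was at 728, 744 and 797 CPM in WT and 414, 517 and 485 CPM in ∆Foxp3, a log2 fold change of −0.68 ± 0.13, adjusted p = 0.00147, where ± is the standard error of the fit. In lung, Cd5 was at 974, 952 and 910.0 CPM in WT and 537, 606 and 473 CPM in ∆Foxp3 (−0.81 ± 0.13, adjusted p = 0.000697). The highest ∆Foxp3 library, lung 2, still lay below the lowest WT library, spleen 1. Cd2 (chromosome 3, 101275899 to 101287939), an adhesion receptor, was at 929, 812 and 698 CPM in WT and 498, 568 and 519 CPM in ∆Foxp3 in spleen (−0.62 ± 0.14, adjusted p = 0.00543). In lung, Cd2 was at 801, 731 and 695 CPM in WT and 615, 699 and 517 CPM in ∆Foxp3, where the groups overlapped and the test did not pass (−0.28 ± 0.14, adjusted p = 0.185). Cd28 (chromosome 1, 60716800 to 60773359), the costimulatory receptor, fell in spleen from 361, 359 and 392 CPM in WT to 303, 230.1 and 246 CPM in ∆Foxp3 (−0.51 ± 0.15, adjusted p = 0.0197). In lung, Cd28 was at 505, 544 and 626 CPM in WT and 365, 431 and 489 CPM in ∆Foxp3 (−0.38 ± 0.15, adjusted p = 0.0834), again with separate groups but short of the threshold. The spleen call of Cd28 was lost without spleen WT 3, ∆Foxp3 2 or ∆Foxp3 3 (adjusted p = 0.0530 to 0.0736). Ptprc (chromosome 1, 138062861 to 138175708), which encodes CD45, the phosphatase that keeps Lck ready for activation, was at 1998, 2249.9 and 2149.9 CPM in WT and 1531, 1569.8 and 1566 CPM in ∆Foxp3 in lung, a fall of −0.46 ± 0.14, adjusted p = 0.0296. Its spleen levels of 1336, 1721 and 1982 CPM in WT and 1501, 1543 and 1370.3 CPM in ∆Foxp3 overlapped (−0.19 ± 0.14, adjusted p = 0.330). The lung call of Ptprc was lost without any 1 of the 6 lung libraries or without spleen ∆Foxp3 1 (adjusted p = 0.0587 to 0.141). Cd6, a relative of Cd5, was at 650 to 1124 CPM over the 12 libraries and passed in neither tissue, with log2 fold changes of −0.37 in spleen and −0.25 in lung.

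Of the 5 kinases, 1 rose and 2 fell in each tissue. Txk (chromosome 5, 72695978 to 72752777) and Tec (chromosome 5, 72755716 to 72868483) encode kinases of the Tec family that act on phospholipase C gamma, and they lie side by side on the minus strand of chromosome 5. In spleen, Txk was at 237, 247 and 243 CPM in WT and 64.9, 41.7 and 54.7 CPM in ∆Foxp3, a 4.50-fold fall (−2.17 ± 0.28, adjusted p = 7.61e-05). In lung, Txk was at 282, 241 and 207 CPM in WT and 69.2, 60.9 and 25.7 CPM in ∆Foxp3, a 4.69-fold fall (−2.23 ± 0.28, adjusted p = 0.000132). No ∆Foxp3 library came within reach of a WT library, and lung ∆Foxp3 3 was the lowest of all 12. In spleen, Tec was at 28.6, 30.0 and 21.0 CPM in WT and 12.2, 10.5 and 10.0 CPM in ∆Foxp3 (−1.28 ± 0.31, adjusted p = 0.00699). In lung, Tec was at 30.4, 30.3 and 38.3 CPM in WT and 18.7, 12.1 and 7.37 CPM in ∆Foxp3 (−1.38 ± 0.31, adjusted p = 0.00649). Tec thus fell with its neighbour, and lung ∆Foxp3 3 was again the lowest library. Zap70 (chromosome 1, 36761798 to 36782818), the kinase that docks on the phosphorylated receptor, rose in both tissues. In spleen, Zap70 was at 341, 327 and 295 CPM in WT and 619.7, 773 and 502 CPM in ∆Foxp3, 1.97-fold higher (0.98 ± 0.16, adjusted p = 0.000499). In lung, Zap70 was at 277, 204 and 236 CPM in WT and 535, 538 and 560.2 CPM in ∆Foxp3, 2.28-fold higher (1.19 ± 0.16, adjusted p = 0.000216). The lowest ∆Foxp3 library, at 502 CPM, lay well above the highest WT library, at 341 CPM. Lck (chromosome 4, 129548344 to 129573641), the kinase upstream of Zap70, was at 1471, 1486 and 1381 CPM in WT and 1339.7, 1350.3 and 1023 CPM in ∆Foxp3 in spleen (−0.22 ± 0.13, adjusted p = 0.210) and at 1382, 1399 and 1333 CPM in WT and 1246, 1307 and 1137 CPM in ∆Foxp3 in lung (−0.16 ± 0.13, adjusted p = 0.415). Lck passed in neither tissue, although each ∆Foxp3 group lay below its WT group. Fyn, the other Src family kinase of T cells, was at 73.9 to 112 CPM over the 12 libraries, and its log2 fold changes were −0.16 in spleen and −0.06 in lung.

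**Figure D3:**
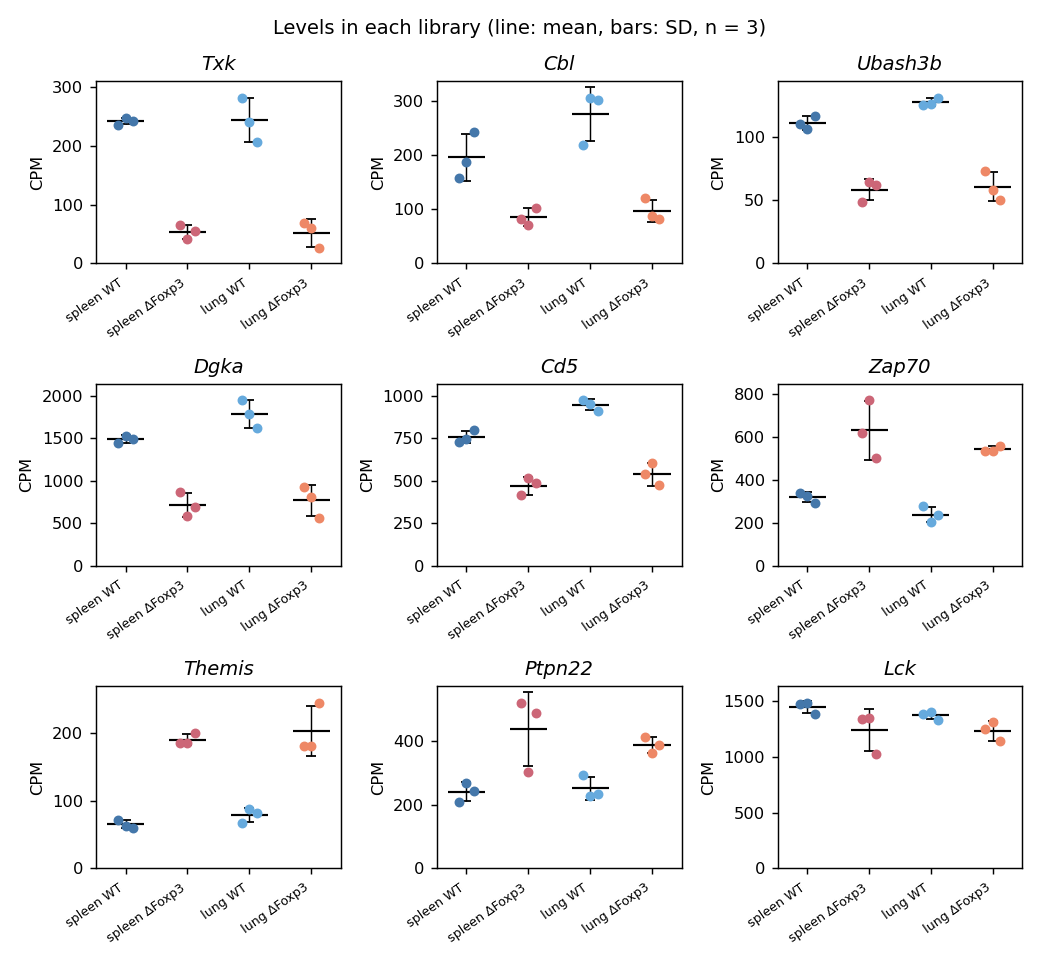
CPM of 9 genes in each library, with the mean (line) and SD (bars) of 3 libraries per group, and axes that start at 0. Txk, Cbl, Ubash3b, Dgka and Cd5 are lower and Zap70, Themis and Ptpn22 higher in ∆Foxp3 in both tissues, with no overlap, and Lck is shown as a gene that did not pass.

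Of the 8 adaptors, 2 rose and 4 fell in spleen, and 4 rose and 2 fell in lung. Themis (chromosome 10, 28668360 to 28883818), an adaptor named for its role in thymocyte selection, had the smallest adjusted p of the members in both tissues. In spleen, Themis was at 71.7, 63.1 and 60.3 CPM in WT and 186, 185 and 199 CPM in ∆Foxp3, 2.92-fold higher (1.55 ± 0.16, adjusted p = 1.32e-05). In lung, Themis was at 66.5, 87.1 and 82.1 CPM in WT and 181, 181 and 245 CPM in ∆Foxp3, 2.57-fold higher (1.36 ± 0.16, adjusted p = 6.79e-05). The lowest ∆Foxp3 library, at 181 CPM, lay well above the highest WT library, at 87.1 CPM. Nck2 (chromosome 1, 43444579 to 43570515), which links phosphorylated receptors to the actin skeleton, rose in both tissues from a low level. In spleen, Nck2 was at 8.46, 6.97 and 8.33 CPM in WT and 21.4, 20.1 and 33.3 CPM in ∆Foxp3 (1.65 ± 0.34, adjusted p = 0.00223). In lung, Nck2 was at 3.23, 7.0 and 7.03 CPM in WT and 14.3, 13.9 and 14.7 CPM in ∆Foxp3 (1.31 ± 0.35, adjusted p = 0.0163). Its lowest value, 3.23 CPM in lung WT 1, was above the 0.646 CPM that 3 counts make in that library. Without lung WT 1 the lung call of Nck2 was lost (adjusted p = 0.0605). Nck1 (chromosome 9, 100492293 to 100546134), its paralog, fell in spleen, from 96.7, 80.2 and 75.3 CPM in WT to 52.5, 62.8 and 37.0 CPM in ∆Foxp3 (−0.73 ± 0.20, adjusted p = 0.0156). In lung, Nck1 was at 73.9, 98.0 and 91.8 CPM in WT and 84.9, 89.6 and 68.6 CPM in ∆Foxp3, with overlapping groups (−0.12 ± 0.20, adjusted p = 0.739). The spleen call of Nck1 was lost without spleen WT 1 or ∆Foxp3 3 (adjusted p = 0.0584 to 0.0600).

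Grap2 (chromosome 15, 80572594 to 80652854) bridges Lat and Lcp2, the core of the scaffold. In spleen, Grap2 was at 169, 198 and 156 CPM in WT and 85.7, 60.9 and 99.4 CPM in ∆Foxp3 (−1.08 ± 0.19, adjusted p = 0.000678), and in lung at 161, 162 and 172 CPM in WT and 94.4, 80.5 and 65.7 CPM in ∆Foxp3 (−1.04 ± 0.19, adjusted p = 0.00152). The fall was 2.12-fold and 2.06-fold, and the highest ∆Foxp3 library, at 99.4 CPM, lay below the lowest WT library, at 156 CPM. Lat (chromosome 7, 126363824 to 126369570) was at 757, 586 and 584 CPM in WT and 446, 501 and 449.6 CPM in ∆Foxp3 in spleen (−0.46 ± 0.14, adjusted p = 0.0265) and at 509, 549.9 and 619 CPM in WT and 448, 513 and 408 CPM in ∆Foxp3 in lung (−0.29 ± 0.14, adjusted p = 0.167), a fall in spleen that was lost without spleen WT 1, ∆Foxp3 1 or ∆Foxp3 3, lung WT 2 or lung ∆Foxp3 1 (adjusted p = 0.0534 to 0.132) and shrank to −0.29 without spleen WT 1. Lcp2 (chromosome 11, 34046920 to 34092295) was at 347, 377 and 397 CPM in WT and 509, 518 and 497 CPM in ∆Foxp3 in lung, a rise of 0.44 ± 0.13, adjusted p = 0.0283, and at 446, 444 and 409 CPM in WT and 453, 580.1 and 439 CPM in ∆Foxp3 in spleen (0.18 ± 0.13, adjusted p = 0.339). The Lcp2 call was lost without lung WT 1, WT 2, ∆Foxp3 2 or ∆Foxp3 3 (adjusted p = 0.0586 to 0.0868). Fyb (chromosome 15, 6522853 to 6663313), which couples the receptor to integrins, fell in both tissues. In spleen, Fyb was at 452, 340.2 and 383 CPM in WT and 267, 257 and 262 CPM in ∆Foxp3 (−0.58 ± 0.13, adjusted p = 0.00543), and in lung at 435, 387 and 376 CPM in WT and 246, 269 and 289.9 CPM in ∆Foxp3 (−0.57 ± 0.14, adjusted p = 0.00818). The lung call of Fyb was lost without WT 1, ∆Foxp3 1 or ∆Foxp3 2 (adjusted p = 0.0539 to 0.0694), and 10.2% of its exon bases overlap other annotated genes, from which unstranded reads cannot be separated. Sh2d2a (chromosome 3, 87846755 to 87855722), an adaptor that binds Lck, was at 519.9, 383 and 352 CPM in WT and 601, 617 and 608 CPM in ∆Foxp3 in lung, a rise of 0.54 ± 0.15, adjusted p = 0.0201. In spleen, Sh2d2a was at 380.0, 359 and 405 CPM in WT and 431, 425 and 354 CPM in ∆Foxp3, with overlapping groups (0.08 ± 0.15, adjusted p = 0.738). The lung call was lost without WT 2, WT 3, ∆Foxp3 2 or ∆Foxp3 3 (adjusted p = 0.0514 to 0.0782).

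Among the 7 enzymes and relays, 2 fell in spleen, and 1 rose and 1 fell in lung, the lung counts being near the shares of all genes (9.74% and 10.5%). Prkcq (chromosome 2, 11172108 to 11301222), the protein kinase C that joins the receptor to the NF-kappa-B arm, fell in both tissues. In spleen, Prkcq was at 403, 537 and 521 CPM in WT and 276, 228 and 352 CPM in ∆Foxp3 (−0.77 ± 0.18, adjusted p = 0.00509), and in lung at 430.3, 505 and 567 CPM in WT and 317, 335 and 267 CPM in ∆Foxp3 (−0.71 ± 0.18, adjusted p = 0.0117). The lung call was lost without WT 3 or ∆Foxp3 3 (adjusted p = 0.0636 to 0.0770). Rasgrp1 (chromosome 2, 117279993 to 117343001), which loads Ras with GTP on binding diacylglycerol, was at 140.0, 199 and 193 CPM in WT and 87.7, 79.3 and 123 CPM in ∆Foxp3 in spleen (−0.87 ± 0.28, adjusted p = 0.0328). In lung, Rasgrp1 was at 162, 309 and 314 CPM in WT and 225, 134 and 128 CPM in ∆Foxp3, where lung WT 1 lay inside the ∆Foxp3 range (−0.69 ± 0.28, adjusted p = 0.0946). The spleen call was lost without WT 2, WT 3, ∆Foxp3 1 or ∆Foxp3 2 (adjusted p = 0.0893 to 0.127). Bcl10 (chromosome 3, 145922804 to 145934356), an adaptor that binds Malt1, passed in lung only, and its call was lost in 13 settings, the most of any genotype call among the members. In lung, Bcl10 was at 86.4, 80.6 and 83.3 CPM in WT and 119, 124 and 98.1 CPM in ∆Foxp3 (0.45 ± 0.15, adjusted p = 0.0496), and in spleen at 132, 112 and 114 CPM in WT and 107, 110.0 and 88.0 CPM in ∆Foxp3 (−0.23 ± 0.15, adjusted p = 0.280). Its lung rise was lost without any WT library of lung, lung ∆Foxp3 1 or 2, spleen WT 2 or 3 or spleen ∆Foxp3 1 (adjusted p = 0.0507 to 0.140). Vav1, Plcg1, Sos1 and Malt1 passed in neither tissue. Their log2 fold changes lay between −0.34 (Sos1) and −0.05 (Plcg1) in spleen and between −0.49 (Sos1) and −0.22 (Vav1) in lung. Over the 12 libraries, Vav1 was at 230.1 to 363 CPM, Plcg1 at 146 to 271, Malt1 at 33.4 to 102 and Sos1 at 8.46 to 29.3.

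Of the 13 brakes, 2 rose and 4 fell in spleen, and 1 rose and 6 fell in lung. The counts of risen brakes are near the shares of all genes that rose (14.1% in spleen and 9.74% in lung), and those of fallen brakes above the shares that fell (12.5% and 10.5%). Cbl (chromosome 9, 44142976 to 44234049) and Cblb (chromosome 16, 52031225 to 52208048) encode ubiquitin ligases that tag activated receptor complexes. In spleen, Cbl was at 159, 187 and 244 CPM in WT and 83.1, 71.7 and 103 CPM in ∆Foxp3, a 2.28-fold fall (−1.19 ± 0.21, adjusted p = 0.000820). In lung, Cbl was at 219, 307 and 303 CPM in WT and 120.4, 87.8 and 82.4 CPM in ∆Foxp3, a 2.85-fold fall (−1.51 ± 0.21, adjusted p = 0.000251). In WT, 2 of the 3 lung libraries held more Cbl than any spleen library, while the ∆Foxp3 libraries of the tissues overlapped. Cblb was at 369, 268 and 210.4 CPM in WT and 150.0, 128 and 127 CPM in ∆Foxp3 in lung, a 2.09-fold fall (−1.07 ± 0.21, adjusted p = 0.00312). In spleen, Cblb was at 153, 205 and 165 CPM in WT and 148, 94.7 and 143 CPM in ∆Foxp3, separate groups that did not pass (−0.44 ± 0.21, adjusted p = 0.145).

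Ubash3b (chromosome 9, 41011098 to 41161697), a phosphatase that acts on Zap70, fell in both tissues. In spleen, Ubash3b was at 109.9, 106 and 116 CPM in WT and 48.5, 64.2 and 61.8 CPM in ∆Foxp3 (−0.93 ± 0.17, adjusted p = 0.000872), and in lung at 125, 126 and 131 CPM in WT and 72.9, 57.9 and 50.3 CPM in ∆Foxp3 (−1.08 ± 0.17, adjusted p = 0.000529). All 6 WT libraries lay between 106 and 131 CPM and all 6 ∆Foxp3 libraries between 48.5 and 72.9 CPM. Its paralog Ubash3a passed in neither tissue (−0.06 ± 0.16, adjusted p = 0.822, for spleen, and 0.46 ± 0.16, adjusted p = 0.0519, for lung), with WT libraries at 275 to 412 CPM and ∆Foxp3 libraries at 312 to 499 CPM. Dgka (chromosome 10, 128720134 to 128744855) and Dgkz (chromosome 2, 91932824 to 91975864) encode kinases that remove diacylglycerol. In spleen, Dgka was at 1440.2, 1533 and 1497 CPM in WT and 867, 588 and 694 CPM in ∆Foxp3, a 2.08-fold fall (−1.06 ± 0.18, adjusted p = 0.000545). In lung, Dgka was at 1949.6, 1785 and 1618 CPM in WT and 928, 813 and 568 CPM in ∆Foxp3, a 2.32-fold fall (−1.21 ± 0.18, adjusted p = 0.000339). Dgkz was at 137, 134 and 162 CPM in WT and 118, 98.3 and 88.0 CPM in ∆Foxp3 in lung (−0.51 ± 0.15, adjusted p = 0.0275) and at 121, 124 and 142 CPM in WT and 93.1, 102 and 94.8 CPM in ∆Foxp3 in spleen (−0.42 ± 0.15, adjusted p = 0.0507). Its lung call was lost without lung WT 1, WT 2, WT 3, ∆Foxp3 2 or ∆Foxp3 3, or spleen ∆Foxp3 1 (adjusted p = 0.0523 to 0.160).

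Csk (chromosome 9, 57626646 to 57653631) encodes the kinase that locks Lck and Fyn in their inactive form, and Ptpn22 (chromosome 3, 103859795 to 103912247) a phosphatase that works with it. They moved in opposite directions. In spleen, Csk was at 281, 231 and 289.9 CPM in WT and 196, 189.9 and 183 CPM in ∆Foxp3 (−0.50 ± 0.13, adjusted p = 0.0101), and in lung at 231, 246 and 234 CPM in WT and 174, 186 and 164 CPM in ∆Foxp3 (−0.44 ± 0.13, adjusted p = 0.0257). The lung fall of Csk was lost without any 1 of the 6 lung libraries or spleen ∆Foxp3 1 (adjusted p = 0.0578 to 0.144). In spleen, Ptpn22 was at 209, 269 and 243 CPM in WT and 521, 303 and 489 CPM in ∆Foxp3 (0.86 ± 0.19, adjusted p = 0.00347), and in lung at 294, 228 and 233 CPM in WT and 413, 362 and 387 CPM in ∆Foxp3 (0.62 ± 0.19, adjusted p = 0.0304). The spleen libraries of Ptpn22 were uneven, with ∆Foxp3 2 close to the WT libraries, and the lung rise was lost without WT 2, WT 3, ∆Foxp3 1 or ∆Foxp3 3 (adjusted p = 0.0634 to 0.103). Sla (chromosome 15, 66780819 to 66831829), an adaptor that promotes loss of the receptor from the surface, rose in spleen, from 415, 401 and 419 CPM in WT to 491, 587 and 539.7 CPM in ∆Foxp3 (0.39 ± 0.13, adjusted p = 0.0331). In lung, Sla was at 578, 558 and 472 CPM in WT and 598, 578 and 663 CPM in ∆Foxp3, with overlapping groups (0.19 ± 0.13, adjusted p = 0.308). The spleen call of Sla was lost without WT 2, WT 3 or ∆Foxp3 2 (adjusted p = 0.0677 to 0.0983). Pag1, the membrane anchor of Csk, and the phosphatase genes Ptpn2 and Ptpn6 passed in neither tissue, nor did Sla2, whose exons overlap those of the antisense gene Rab5if over 23.6% of their bases. Their log2 fold changes were 0.49 and 0.48 for Pag1, −0.30 and 0.15 for Ptpn2, 0.06 and 0.13 for Ptpn6, and −0.20 and −0.44 for Sla2, in spleen and lung. Over the 12 libraries, Pag1 was at 39.5 to 108 CPM, Ptpn2 at 128 to 219, Ptpn6 at 299 to 486 and Sla2 at 71.5 to 113. The direction of Ptpn6 in spleen flipped to −0.01 under upper-quartile scaling.

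Settings other than leaving out 1 library also ended some of these calls. Fitting only the groups compared ended the spleen calls of Cd28, Lat, Nck1, Csk and Sla (adjusted p = 0.0578 to 0.0987). Leaving out the 3 libraries that stood apart ended the spleen calls of Lat, Nck1 and Csk and the lung calls of Lcp2, Nck2, Bcl10, Csk, Ptpn22, Cblb and Dgkz (adjusted p = 0.0510 to 0.160). Testing without a low-count filter ended those of Sla in spleen and of Lcp2, Bcl10, Csk and Dgkz in lung (adjusted p = 0.0873 to 0.214). Upper-quartile scaling ended those of Sla in spleen and of Bcl10 and Ptpn22 in lung (adjusted p = 0.0518 to 0.0738), and RLE scaling that of Bcl10 (adjusted p = 0.0530).

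To order the genes by level, mean CPM was divided by the length in kilobases of all annotated exons joined. On that scale Lck and Cd2 held ranks 1 and 2 in all 4 groups, at 494 and 467 in spleen WT and 423 and 303 in spleen ∆Foxp3. Dgka held rank 3 in both WT groups, at 313 in spleen and 375 in lung, and rank 5 in both ∆Foxp3 groups, at 150.4 and 162. Zap70 moved up, from rank 8 (107) to 3 (211) in spleen and from rank 11 (79.9) to 3 (182) in lung. Themis, at 5.57 and 6.73 in the WT groups, ranked 35 in both and moved to rank 26 in ∆Foxp3, at 16.3 and 17.3. Txk moved down from rank 26 to 35 in spleen and from rank 28 to 34 in lung. Nck2, Sos1 and Malt1 filled the bottom 3 ranks in both WT groups. The rank of Malt1 depends on its 18.0 kb of joined exons, against 3.74 kb for Tec. In CPM, Malt1 lay above Tec, at 48.9 against 26.5 in spleen WT and 80.3 against 33.0 in lung WT. Ranks rest on group means and have no error of their own.

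**Figure D4:**
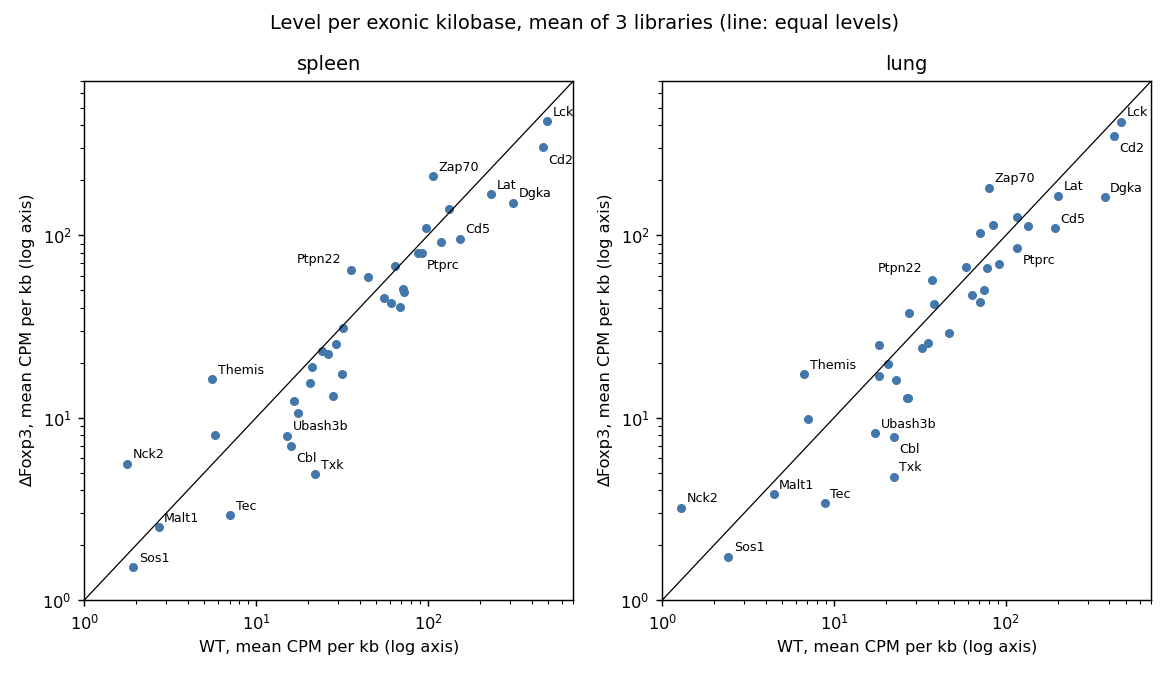
Mean CPM per exon kilobase in WT (x) against ∆Foxp3 (y) for the 38 genes, both axes logarithmic, in spleen and lung. The line marks equal levels. Zap70, Themis, Nck2 and Ptpn22 lie above it, and Txk, Tec, Cbl, Ubash3b, Dgka and Cd5 below it, in both panels.

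Related genes were also set against each other within each library, by the log2 ratio of their CPM. Gene length cancels when the ratio is compared between groups, and the ratios are given without a test. Ubash3a over Ubash3b was 1.54 to 1.96 in spleen WT and 2.33 to 3.04 in spleen ∆Foxp3, and 1.07 to 1.39 and 2.74 to 2.90 in lung. The balance of this pair thus shifted to Ubash3a in every ∆Foxp3 library. Nck1 over Nck2 was 3.16 to 3.51 in spleen WT against 0.15 to 1.64 in ∆Foxp3, and 3.69 to 4.48 against 2.21 to 2.68 in lung. Txk over Tec was 3.04 to 3.53 in spleen WT against 1.97 to 2.43 in ∆Foxp3, and 2.43 to 3.21 against 1.79 to 2.32 in lung. Dgka over Dgkz was 3.39 to 3.62 against 2.53 to 3.22 in spleen and 3.32 to 3.83 against 2.69 to 3.05 in lung. Sla over Sla2 was 2.12 to 2.30 against 2.43 to 3.00 in spleen and 2.06 to 2.53 against 2.59 to 3.21 in lung. These 5 pairs did not overlap between genotypes in either tissue. No share over other gene pairs was computed to set beside this count. Single genes were separate, higher and lower, for 18.6% and 19.5% of all genes in spleen and 23.2% and 22.2% in lung. Txk, Nck2, Ubash3b and Dgka were each called in both tissues, and the ratios of their pairs are not independent of those calls. Cd5 over Cd6 was −0.21 to −0.15 against −0.86 to −0.62 in lung and overlapped in spleen, where it was −0.51 to −0.22 against −0.86 to −0.38. Cbl over Cblb was −0.13 to 0.57 against −0.83 to −0.40 in spleen and overlapped in lung (−0.75 to 0.53 against −0.62 to −0.32). Lck over Fyn overlapped in both tissues, at 3.61 to 4.19 over the 12 libraries.

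**Figure D5:**
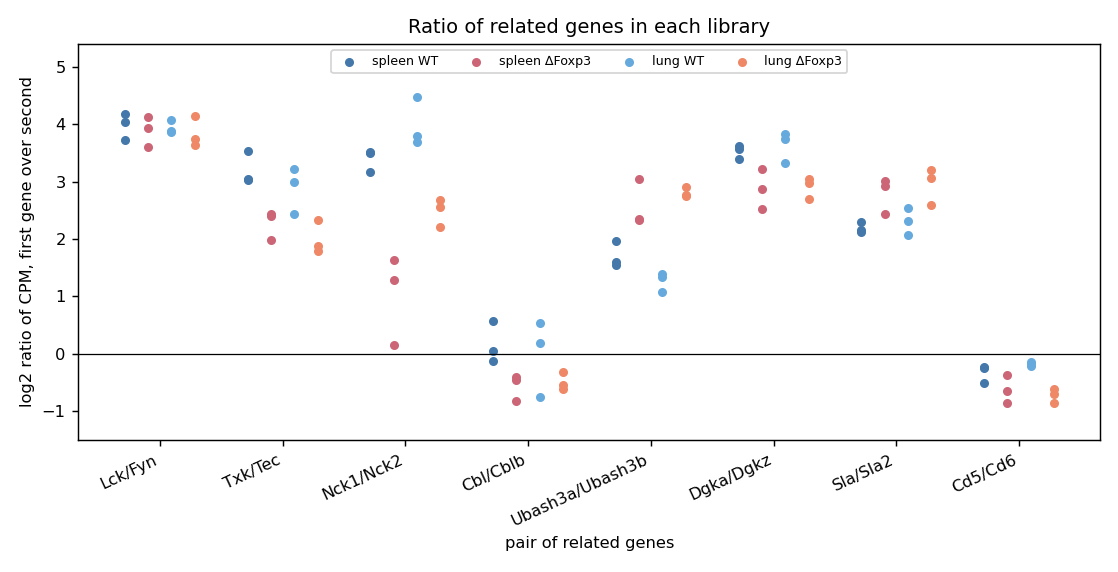
Log2 ratio of CPM of the first gene over the second for 8 pairs of related genes, with 1 point per library, coloured by group. The groups separate by genotype in both tissues for Txk/Tec, Nck1/Nck2, Ubash3a/Ubash3b, Dgka/Dgkz and Sla/Sla2, and overlap for Lck/Fyn.

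Far fewer of these genes passed between the tissues than between the genotypes, and the same held for all genes tested. Over all genes, 3540 in spleen and 2686 in lung were called between genotypes. Between tissues, 549 were called in WT and 96 in ∆Foxp3, so this contrast is not particular to the 38 genes. Between lung and spleen WT, 1 of the 38 genes rose and none fell (3.1% and 1.03% of all genes tested), and between lung and spleen ∆Foxp3 likewise 1 rose and none fell (0.549% and 0.173%). The gene was Cd28 in both comparisons, at 505, 544 and 626 CPM in lung WT against 361, 359 and 392 CPM in spleen WT (0.59 ± 0.15, adjusted p = 0.0362). In ∆Foxp3, Cd28 was at 365, 431 and 489 CPM in lung against 303, 230.1 and 246 CPM in spleen (0.72 ± 0.15, adjusted p = 0.0423). The lung libraries lay above the spleen libraries in both genotypes. Both calls were fragile. The WT call was lost without any spleen WT library, lung WT 2, lung WT 3 or lung ∆Foxp3 2 (adjusted p = 0.0583 to 0.161), and the ∆Foxp3 call without spleen WT 2 or 3, spleen ∆Foxp3 2 or 3, lung WT 2 or lung ∆Foxp3 2 or 3 (adjusted p = 0.0608 to 0.200). Neither was called with library totals or without the 3 libraries that stood apart, nor was the ∆Foxp3 call made with upper-quartile scaling or only the groups compared. Without regard to the test, the groups of 11 members were separate with lung above spleen in WT and of 4 with lung below (13.2% and 12.4% of all genes), and in ∆Foxp3 of 4 and 2 (8.07% and 7.41%). Over all genes, the WT comparison called 412 higher and 137 lower in lung, or 371 and 260 when scaled by library totals.

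Whether the genotype difference itself differed between the tissues was tested as an interaction. The interaction was called for none of the 38 genes (0.925% of all genes tested), and DESeq2 and limma called none either. The smallest adjusted p was 0.226, for Bcl10, whose genotype difference was higher in lung than in spleen by 0.68 ± 0.21. Bcl10, Ubash3a, Sh2d2a and Nck1 had an unadjusted p under 0.05, which 9.26% of all genes had. A gene called in 1 tissue only, such as Cd2, Lat, Nck1, Lcp2 or Cblb, is therefore not shown to differ between the tissues. The allele named for the spleen libraries also differs from that named for the lung libraries, so an interaction could not be assigned to tissue.

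The 38 genes were set in the wider pathway with 83 companion genes in 7 lists, all of which were tested. In spleen 9 rose and 14 fell, against 14.1% and 12.5% of all genes tested, and in lung 7 rose and 18 fell, against 9.74% and 10.5%. The share that fell in lung was thus well above that of all genes. The share that fell in spleen was only slightly above, and the shares that rose were slightly below. Among genes with a mean of at least 10 CPM, 17.2% rose and 14.7% fell in spleen, and 12.5% rose and 12.6% fell in lung. The counts of the single lists stand against the shares of all genes. The median log2 fold change of the companion genes was −0.03 in spleen and −0.15 in lung. The interaction called none of them. Values below are means of 3 libraries in CPM with their SD, and the log2 fold change of ∆Foxp3 against WT with its standard error.

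Of the 5 receptor chain and coreceptor genes, 1 rose and 2 fell in spleen, and 1 rose and 1 fell in lung. Cd247, the zeta chain on which Zap70 docks, fell from 552 ± 23.5 to 253 ± 44.8 in spleen (−1.12 ± 0.17, adjusted p = 0.000210) and from 599.7 ± 19.6 to 310.4 ± 64.8 in lung (−0.95 ± 0.17, adjusted p = 0.00126). Cd4, the coreceptor that carries Lck, rose from 649 ± 60.9 to 844 ± 39.5 in spleen (0.38 ± 0.12, adjusted p = 0.0245) and from 705 ± 38.0 to 913 ± 4.27 in lung (0.37 ± 0.12, adjusted p = 0.0340). Cd3e fell from 893 ± 30.0 to 699 ± 39.1 in spleen (−0.35 ± 0.11, adjusted p = 0.0273). Among 19 other kinases, adaptors and regulators near the receptor, 4 rose and 5 fell in spleen, and 3 rose and 4 fell in lung. Rhoh, a small GTPase that helps to bring Zap70 to the receptor, fell from 699 ± 62.3 to 179 ± 20.3 in spleen (−1.97 ± 0.19, adjusted p = 7.31e-06) and from 776 ± 46.2 to 243 ± 74.0 in lung (−1.68 ± 0.19, adjusted p = 3.90e-05). Trat1, a transmembrane adaptor that associates with the receptor, fell from 107 ± 22.9 to 35.0 ± 6.45 in spleen (−1.61 ± 0.21, adjusted p = 6.73e-05) and from 122 ± 24.7 to 28.3 ± 1.26 in lung (−2.11 ± 0.21, adjusted p = 2.03e-05). Dok2, an inhibitory adaptor, rose in spleen from 273 ± 32.6 to 577 ± 96.8 (1.08 ± 0.18, adjusted p = 0.000522). Peli1, a ubiquitin ligase, fell in lung from 242 ± 78.5 to 92.8 ± 29.6 (−1.39 ± 0.26, adjusted p = 0.00208). Its spleen means were 139 in WT and 59.4 in ∆Foxp3. The Cd3e call was lost without any 1 library except spleen WT 3, the spleen call of Cd4 without spleen WT 2, WT 3 or ∆Foxp3 2, and the lung call of Cd4 without any lung WT library, ∆Foxp3 2 or ∆Foxp3 3 (adjusted p = 0.0558 to 0.102).

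In the calcium and NFAT arm, 2 of 15 rose and 1 fell in spleen, and 1 rose and 3 fell in lung. Itpkb, a kinase that converts the second messenger inositol trisphosphate, fell from 177 ± 18.6 to 59.8 ± 7.46 in spleen (−1.57 ± 0.17, adjusted p = 1.99e-05) and from 242 ± 7.27 to 78.9 ± 19 in lung (−1.62 ± 0.17, adjusted p = 3.40e-05). Itpr1, a receptor for the same messenger, rose from 61.5 ± 2.15 to 125 ± 4.43 in spleen (1.02 ± 0.17, adjusted p = 0.000570) and from 65.5 ± 8.82 to 154 ± 36.3 in lung (1.24 ± 0.17, adjusted p = 0.000257). Ppp3cc, a calcineurin subunit, rose in spleen from 16.1 ± 4.64 to 33.2 ± 8.87 (1.06 ± 0.27, adjusted p = 0.00986), and Stim1, a calcium sensor, fell in lung from 273 ± 17.3 to 195 ± 9.69 (−0.48 ± 0.14, adjusted p = 0.0233). The lung means of Ppp3cc were 19.5 in WT and 29.7 in ∆Foxp3, and the spleen means of Stim1 were 204 and 183. In the Ras and MAP kinase arm, 3 of 15 fell and none rose in spleen, and 1 rose and 2 fell in lung. The 3 that fell in spleen encode Ras GTPase-activating proteins, Rasa2 from 84.8 ± 17.8 to 45.0 ± 10.4 (−0.92 ± 0.21, adjusted p = 0.00421), Rasa1 from 70.9 ± 9.49 to 44.8 ± 11 (−0.67 ± 0.22, adjusted p = 0.0340) and Rasa3 from 425 ± 31.1 to 293 ± 75.7 (−0.54 ± 0.19, adjusted p = 0.0458). Nf1, another such gene of the list, passed in neither tissue. In lung, Rasa3 fell from 575 ± 27.9 to 276 ± 59.3 (−1.06 ± 0.19, adjusted p = 0.00142), Rasa2 fell from 72.7 ± 3.08 to 46.5 ± 4.53 (−0.64 ± 0.21, adjusted p = 0.0396), and Ksr1, a scaffold of the MAP kinases, rose from 7.71 ± 1.97 to 27.8 ± 10.4 (1.84 ± 0.41, adjusted p = 0.00619). The lung calls of Stim1 and Rasa2 were lost without any 1 lung library, and that of Rasa2 also without spleen WT 3 or ∆Foxp3 1. The spleen call of Rasa3 was lost without any 1 library except spleen ∆Foxp3 3, and that of Rasa1 without spleen WT 1, WT 2, ∆Foxp3 1 or ∆Foxp3 3, lung WT 2, WT 3 or ∆Foxp3 2 (adjusted p = 0.05004 to 0.167 over these 4 genes).

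In the PI3K arm, 2 of 11 rose in spleen and none fell, and 1 rose and 2 fell in lung. Pik3cg, a catalytic subunit, rose from 64.4 ± 9.03 to 170.1 ± 33.3 in spleen (1.40 ± 0.17, adjusted p = 3.81e-05) and from 75.1 ± 7.12 to 146 ± 7.4 in lung (0.96 ± 0.17, adjusted p = 0.00132). Akt1, a kinase downstream, rose in spleen from 36.6 ± 4.09 to 64.3 ± 7.99 (0.81 ± 0.21, adjusted p = 0.0119). Its lung means were 37.0 in WT and 51.9 in ∆Foxp3. Pik3ip1, an inhibitor of the pathway, fell in lung from 145 ± 11.4 to 45.0 ± 16.8 (−1.69 ± 0.50, adjusted p = 0.0318), as did Pik3r1, a regulatory subunit, from 188 ± 26.6 to 105 ± 3.44 (−0.83 ± 0.28, adjusted p = 0.0476). In the NF-kappa-B arm, 3 of 8 fell in each tissue and none rose. Ikbkb, a kinase of the IKK complex, fell from 363 ± 55.6 to 221 ± 24.6 in spleen (−0.71 ± 0.15, adjusted p = 0.00265) and from 382 ± 17.8 to 227 ± 27.1 in lung (−0.75 ± 0.15, adjusted p = 0.00289). Casp8 fell from 329 ± 51.4 to 181 ± 52.3 in spleen (−0.86 ± 0.18, adjusted p = 0.00303) and from 236 ± 11 to 162 ± 7.15 in lung (−0.54 ± 0.18, adjusted p = 0.0491). In the actin arm, none of 10 passed in spleen (where Coro1a, the highest of the list in CPM without regard to length, was at 3328 ± 253 in WT and 3805 ± 96.2 in ∆Foxp3), and 3 fell in lung. These were Dock2, an activator of Rac, from 754 ± 46.6 to 498 ± 11.1 (−0.60 ± 0.19, adjusted p = 0.0405), Rac1 from 91.5 ± 43.8 to 46.0 ± 14.0 (−0.997 ± 0.31, adjusted p = 0.0347) and Pak1 from 7.67 ± 7.27 to 1.13 ± 0.81 (−2.72 ± 0.83, adjusted p = 0.0325), and the groups of Rac1 and Pak1 overlapped. The lung calls of Pik3r1, Casp8 and Dock2 were lost without any 1 lung library or spleen ∆Foxp3 1, and also without spleen WT 3 (Pik3r1), WT 2 or 3 (Casp8) or WT 2 (Dock2). The call of Pik3ip1 in lung was lost without spleen WT 1, WT 3 or ∆Foxp3 1, any lung WT library, or lung ∆Foxp3 2 or 3. Those of Pak1 and Rac1 were lost without lung WT 2, ∆Foxp3 2 or ∆Foxp3 3, of Pak1 also without lung WT 1 or ∆Foxp3 1, and of Rac1 also without lung WT 3 or spleen ∆Foxp3 1 (adjusted p = 0.0502 to 0.227 over these 6 genes). The log2 fold change of Pak1 moved from −2.72 to −1.59 without lung WT 1 and to −1.11 without the 3 libraries that stood apart, that of Rac1 to −0.55 without lung WT 3, and that of Rasa3 in spleen to −0.34 without ∆Foxp3 2. Among the companion genes named, leaving out the 3 libraries that stood apart ended the spleen calls of Cd3e, Rasa1 and Rasa3 and the lung calls of Cd4, Stim1, Rasa2, Pik3ip1, Pik3r1, Casp8, Pak1 and Dock2 (adjusted p = 0.0686 to 0.309). Fitting only the groups compared ended those of Cd4, Cd3e, Rasa1 and Rasa3 in spleen and of Rac1 in lung, and testing without a low-count filter those of Cd4 in both tissues, Cd3e in spleen, and Stim1 and Pik3ip1 in lung. Scaling ended those of Cd4 in both tissues (upper quartile), Rasa3 in spleen and Casp8 in lung (RLE), and Pik3r1 and Dock2 in lung (library totals), and limma that of Pak1.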

How the data were processed

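Counts in 12 Treg libraries (spleen and lung, WT and ∆Foxp3, 3 each) were used as the authors deposited them, whole-number raw counts per gene symbol. Per the labels' protocols, RNA of 1000 double-sorted cells was copied by Smart-seq2, amplified for 18 cycles without molecular identifiers and read as pairs of 38 nt, so errors cover more than counting of molecules. The submitters' processing notes list featureCounts, Subread 2.0.0, STAR 2.7.3a and the mm10 build; for the settings, annotation and strand, nothing was given in the sources used here. Smart-seq2 does not mark strand, so overlapping genes cannot be separated.

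Genes passing edgeR's default filter by group (13295) were tested with edgeR 4.0.16 (R 4.3.3; quasi-likelihood F test, robust, TMM) in 1 fit over 12 libraries with group as the only term. P-values are two-sided and Benjamini-Hochberg adjusted over all genes tested, with calls at an adjusted p under 0.05. CPM are TMM-scaled, and a floor of 3 counts is 0.334 to 0.777 CPM. The contrasts were ∆Foxp3 minus WT in each tissue, lung minus spleen in each genotype, and the interaction. The script was tested on simulated counts. Members, companion lists, markers and tests were chosen with earlier results of these data known. Members called in a genotype contrast, and Lck, were given in every library, the others by range. Companion genes were named per list and genotype contrast, up to 3 called by adjusted p, or the most abundant; a companion gene and a marker that enter the counts and sums are not reported here by name. Coordinates and exon lengths come from GENCODE M21 (mm10), promoters from RefSeq. Alternatives were RLE, library-total and upper-quartile scaling, DESeq2 1.42.0, no filter, a filter of 10 CPM in 3 libraries, limma 3.58.1 (voom with quality weights), a replicate block, only the groups compared, and each library left out; leaving out the 3 libraries that stood apart was added after seeing the data.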

Additional observations from a re-analysis of the deposited data

How the results depend on the processing

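Of the 40 genotype calls among the members, 40 kept their direction in every alternative, 25 stayed called whichever library was left out and 23 in every alternative (14 in spleen and 9 in lung). Of the 36 member results that did not pass, 26 passed in no alternative. The number of members that fell ranged from 13 to 15 in spleen and 9 to 13 in lung with 1 library left out, and from 11 (only the groups compared) to 18 (limma) and 10 to 18 otherwise. Risen members in spleen stayed at 4 or 5. In lung they numbered 7, 3 to 8 with 1 library left out and 3 without the 3 libraries that stood apart. The tissue counts were the least stable. In WT, 1 member rose, which became 0 with library totals, the replicate block or without the 3 libraries that stood apart, 2 without a filter or with limma and 3 with DESeq2, and 0 to 2 with 1 library left out. None fell, which became 2 with library totals, DESeq2 or limma, 1 with upper-quartile factors, and 0 to 1 with 1 library left out. In ∆Foxp3, 1 rose, which became 0 with library totals, upper-quartile factors, the replicate block, only the groups compared or without the 3 libraries that stood apart, 2 without a filter, with DESeq2 or with limma, and 0 to 2 with 1 library left out. The interaction called no member in any alternative. The cause of these shifts was not tested.

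Small differences that had not passed changed sign, with 1 library left out, within these log2 ranges: in spleen Fyn −0.246 to 0.0384, Vav1 −0.193 to 0.0114, Plcg1 −0.158 to 0.0917, Malt1 −0.319 to 0.0720, Ptpn6 −0.123 to 0.228 and Ubash3a −0.141 to 0.0460, and in lung Fyn −0.102 to 0.0794, Nck1 −0.189 to 0.0228 and Malt1 −0.334 to 0.0201. With limma, Fyn in spleen was 0.0016, Malt1 0.137 and Ptpn6 −0.0108, and Ptpn6 was −0.0107 with upper-quartile factors. Without the 3 libraries that stood apart, Fyn was 0.0377 and Vav1 0.0107.

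Over all genes, the 3540 calls in spleen became 2287 with only the spleen libraries. The 2686 in lung became 4598 with limma, 1321 without the 3 libraries that stood apart, and 1457 to 3364 with 1 library left out. The 549 between WT tissues became 957 without a filter, 1046 with DESeq2 and 1046 with limma, and 281 to 693 with 1 library left out. The 96 between ∆Foxp3 tissues became 292, 235 and 228 under the same 3 settings and 42 to 152 with 1 library left out. The 123 of the interaction became 363, 304 and 190, then 74 with the replicate block, and 36 to 178 with 1 library left out. Whether libraries that share a replicate number belong together could not be settled with 3 libraries a group. The deviations of 18 same-numbered pairs correlated at −0.07 to 0.08, none over 0.1, yet 7 of 12 libraries correlated best with their own number. With the replicate block, 4 to 6 members rose and 13 to 15 fell per tissue. Of the genotype calls named, the block ended those of Sla and Rasa3 in spleen and of Bcl10, Cd4, Rasa2, Pik3r1 and Pak1 in lung (adjusted p = 0.0506 to 0.0647). With 3 libraries a group and no molecular identifiers, a difference that did not pass is not shown to be absent.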
